A study of Arabidopsis thaliana with 8 samples.

Results

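The genes described here encode the Arabidopsis thaliana enzymes that turn jasmonates over: the cytochrome P450 oxidases CYP94B1, CYP94B3 and CYP94C1, the amidohydrolases IAR3 and ILL6, the jasmonate-induced oxygenases JOX1, JOX2, JOX3 and JOX4, and the sulfotransferase ST2A. They were chosen as 10 listed loci, with earlier results of these data known. Each has at least 1 probe on the array, among 25421 genes with a probe in all. ST2A and JOX1 have 2 probes each and the other genes have 1, which gives 12 probes. The active hormone, jasmonoyl-isoleucine, is jasmonic acid joined to an amino acid, and it binds the receptor COI1 together with JAZ repressors, which are then destroyed so that factors such as MYC2 can act. Plants switch the signal off by oxidising the conjugate (the CYP94 enzymes), by cutting off its amino acid (IAR3 and ILL6), by hydroxylating free jasmonic acid before it is conjugated (the JOX enzymes) and by adding sulfate to the hydroxylated acid (ST2A). In Arabidopsis many of these genes are themselves induced by jasmonate.

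Total RNA came from whole 6-day-old seedlings of wild type and of the TT8 mutant tt8-3, both in the Ws (Wassilewskija) background and both raised on sucrose-containing MS medium. TT8 is a transcription factor of the bHLH family known for its role in flavonoid synthesis, and the title of the series asks how it bears on metabolite glycosylation and on the synthesis of stress hormones. The loss of TT8 was thus read in a single allele. Each line was read on 4 arrays of 1 colour, arrays 1 and 2 on slide 1 and arrays 3 and 4 on slide 2. A level below is the log2 processed signal of a probe after subtraction of the log2 value of its array's 75th percentile, so 0 is the 75th percentile and levels of different probes are not comparable. TT8 (AT4G09820) lay between 4.19 and 4.39 on the wild-type arrays and between -7.07 and -5.56 on the tt8-3 arrays, none of which read it well above background. As a bound, each tt8-3 array was given its dimmest detected signal or its own TT8 level, whichever was higher. By that bound TT8 was at least 1521-fold lower in tt8-3. Without the bound its change was -10.69 on the log2 scale (adjusted p = 0.0018 from limma).

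Which arrays are technical replicates decides the spread that a change is set against. The design text calls both arrays that a line has on each slide technical replicates, so they were averaged, which leaves 2 biological replicates per line. As an alternative, the first arrays of a line on both slides were averaged as 1 sample and the second arrays as the other. Over 19214 genes tested, the consensus correlation was -0.207 for arrays of a line that share a slide. It was 0.562 for arrays that share an order on the slide. By median absolute log2 difference, arrays of the same order were the more alike in wild type (0.14 and 0.16, against 0.32 and 0.32 on the same slide). In tt8-3 they were not (0.15 and 0.20, against 0.15 and 0.12 on the same slide). Results on the turnover genes are therefore given with both averagings. If arrays of a line on a slide are separate samples, slide averages hide the spread between them, and p-values by slide can be too small. The arrays' 75th percentile of processed signal was 546.7 to 1113, and 69.0% to 77.2% of probes were well above background. On either slide the wild-type arrays came first and the tt8-3 arrays after them, so position and line cannot be told apart.

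Of the 10 genes, 9 could be tested, and these were well above background on all 8 arrays. With slide averages, CYP94B3, CYP94C1, IAR3, JOX2 and ST2A were called higher in tt8-3 seedlings, by 1.94-fold to 4.98-fold, and none was called lower. CYP94B1, ILL6, JOX3 and JOX4 did not pass the test, with mean changes of 0.17 to 0.33 on the log2 scale. These are 5 of 9 genes called higher, where 15.7% of all genes tested were called higher, 11.0% lower and 26.7% either way (limma adjusted p under 0.05). Since the list was chosen with earlier results of these data known, such counts describe the genes and give no independent support. None of the 9 fell at an unadjusted p under 0.05 either. With arrays averaged by order on the slide, 3 of 9 were called higher (CYP94B3, CYP94C1 and JOX2), where the share over all genes was 2.73% higher, 0.38% lower and 3.11% either way. With slide as a block on the slide averages, a fit with 1 residual degree of freedom, all 9 were called higher, where 33.8% of all genes were called higher, 30.8% lower and 64.6% either way. The median log2 change of the 9 genes was 0.95, and that of all genes tested was 0.01. For the 5 called genes the lowest tt8-3 array stood above the highest wild-type array, as for 19.6% of all genes, while 13.5% stood apart with tt8-3 lower. In RNA from whole seedlings, more cells that express a gene and more RNA per cell cannot be told apart.

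**Figure D1:**
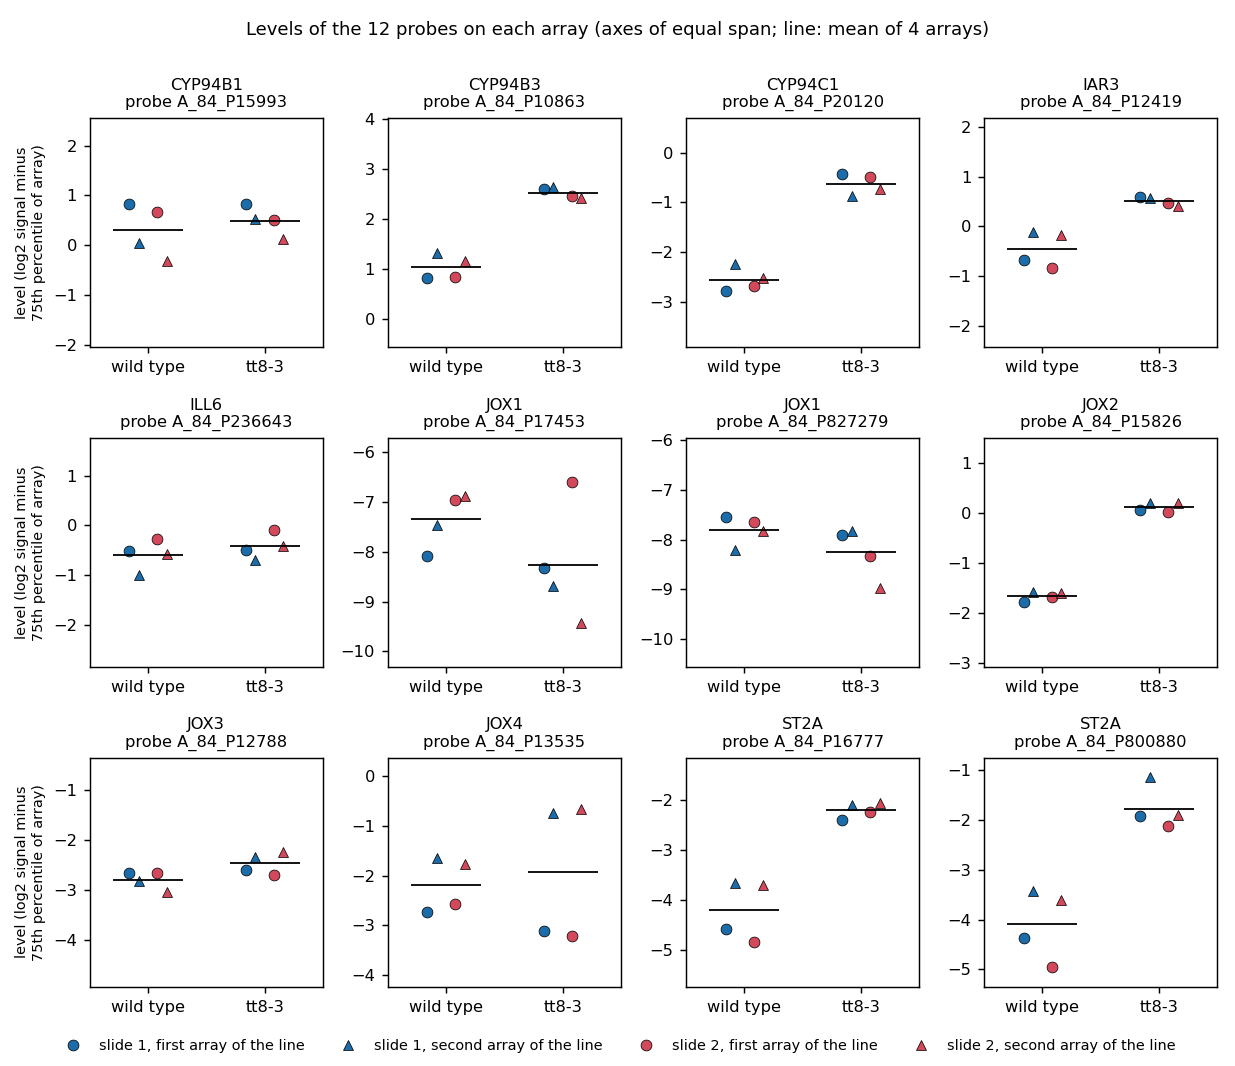
Level of each of the 12 probes (log2, relative to the 75th percentile) on the 4 wild-type and 4 tt8-3 arrays, with colour for the slide, shape for the order of the array on the slide and a line at the mean of 4 arrays. The lines do not overlap for CYP94B3, CYP94C1, IAR3, JOX2 and both probes of ST2A, and the tt8-3 arrays of JOX4 split into a low pair (circles) and a high pair (triangles).

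The CYP94 oxidases divided. CYP94C1 (AT2G27690), which carries the oxidation of the hormone on to the carboxylated form, had levels of -2.78, -2.23, -2.69 and -2.51 on wild-type arrays 1 to 4. On tt8-3 arrays 1 to 4 it had levels of -0.43, -0.87, -0.49 and -0.74. Every tt8-3 array was higher than every wild-type array, with a gap of 1.36 between the nearest arrays. The gene rose by 1.92 on the log2 scale, or 3.78-fold (SE 0.089, limma adjusted p = 0.00243, n = 2 slide averages per line), and by 1.85 within slide 1 and 1.99 within slide 2. With arrays averaged by order the adjusted p from limma was 0.0288.

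CYP94B3 (AT3G48520), which hydroxylates jasmonoyl-isoleucine in the entry step of this oxidation, had wild-type levels of 0.82, 1.31, 0.83 and 1.15. Its tt8-3 levels were 2.61, 2.63, 2.46 and 2.43. The tt8-3 arrays lay within a narrow band and all above the wild-type arrays. The rise was 1.50 on the log2 scale, or 2.83-fold (SE 0.11, limma adjusted p = 0.00505), and it kept its call with arrays averaged by order (adjusted p = 0.0368).

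CYP94B1 (AT5G63450), which shares the hydroxylase activity of CYP94B3, had wild-type levels of 0.83, 0.04, 0.68 and -0.32 and tt8-3 levels of 0.82, 0.52, 0.50 and 0.14. The lines overlapped over most of their range, and in both lines the first array of a slide was the higher one. Its mean change was 0.19, with a 95% interval of -0.28 to 0.66 that includes 0 (limma adjusted p = 0.457, or 0.772 by order). The block on slide gave it a call (adjusted p = 0.0426). The unadjusted 95% intervals of CYP94C1 (1.68 to 2.16) and CYP94B3 (1.22 to 1.79) lay wholly above that of CYP94B1. With arrays averaged by order the interval of CYP94C1, 1.35 to 2.49, still lay above that of CYP94B1, -0.71 to 1.09, while that of CYP94B3 began at 0.99 and overlapped it. The difference between genes was not itself tested.

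Of the amidohydrolases, IAR3 rose and ILL6 did not pass. IAR3 (AT1G51760) releases amino acids from conjugates of both auxin and jasmonate. Its levels were -0.68, -0.12, -0.83 and -0.16 in wild type and 0.58, 0.56, 0.47 and 0.40 in tt8-3. The tt8-3 arrays were nearly level and stood above all wild-type arrays, whose first array on each slide was lower than the second by 0.55 and 0.67. The rise was 0.95 on the log2 scale, or 1.94-fold (SE 0.10, limma adjusted p = 0.0097). The call was lost with arrays averaged by order (adjusted p = 0.122), where the change was 1.28 between the first arrays and 0.62 between the second ones.

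ILL6 (AT1G44350), which acts on jasmonoyl-isoleucine and its hydroxylated form, had levels of -0.52, -0.99, -0.27 and -0.57 in wild type. In tt8-3 its levels were -0.49, -0.69, -0.09 and -0.41. The lines overlapped, and slide 2 read higher than slide 1 in both. Its change was 0.17 on each slide, with a 95% interval of -0.33 to 0.67 (limma adjusted p = 0.533, or 0.664 by order). It was nearly 0 without the wild-type arrays of slide 1 or the tt8-3 arrays of slide 2, and at most 0.34 without the other slide of either line. The block on slide gave it a call (adjusted p = 0.0378).

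The 4 jasmonate-induced oxygenases, which hydroxylate jasmonic acid and so draw it away from the active conjugate, gave 1 gene that rose, 2 that did not pass and 1 that was not detected. JOX2 (AT5G05600) kept close to the same level on all arrays of a line. Its wild-type levels were -1.78, -1.57, -1.68 and -1.61 and its tt8-3 levels were 0.07, 0.21, 0.03 and 0.21. Arrays of a line differed by at most 0.21, and the lines stood 1.60 apart at their nearest arrays. The rise was 1.79 on the log2 scale, or 3.46-fold (SE 0.083, limma adjusted p = 0.00243), with 1.78 between the first arrays and 1.80 between the second ones (adjusted p = 0.0164 by order).

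JOX3 (AT3G55970, named JRG21 in the RefSeq table) had levels of -2.66, -2.82, -2.67 and -3.05 in wild type and -2.60, -2.34, -2.71 and -2.25 in tt8-3. The highest wild-type array and the lowest tt8-3 array overlapped by 0.05. The mean change was 0.33 (95% interval 0.077 to 0.58, unadjusted), with a limma adjusted p = 0.068, and adjusted p = 0.397 by order. It was nearly 0 between the first arrays of the lines (0.010) and 0.64 between the second ones. The block on slide gave it a call (adjusted p = 0.0128).

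JOX4 (AT2G38240) had the widest range within a line of the 9 tested genes. Its levels were -2.73, -1.65, -2.56 and -1.78 on the wild-type arrays, and -3.10, -0.74, -3.21 and -0.66 on the tt8-3 arrays. In tt8-3 the second array of a slide was higher than the first by 2.36 on slide 1 and 2.54 on slide 2, and in wild type by 1.08 and 0.79. The first tt8-3 arrays were thus below every wild-type array and the second ones above. The tt8-3 minus wild-type difference was -0.51 between first arrays and 1.01 between second arrays, and the mean of 0.25 lay between them. Averaging by slide takes this split out of the spread, and the 95% interval was 0.029 to 0.48 (limma adjusted p = 0.0927, and 0.0154 in the block on slide). Averaged by order it was -2.03 to 2.54 (adjusted p = 0.883). The mean change turned negative, at -0.02 to -0.38, without wild-type array 1 or without tt8-3 array 2 or 4.

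JOX1 (AT3G11180) was not well above background at either of its probes on any of the 8 arrays. The processed signals of these probes were 1.62 to 10.2, so the data give only an upper bound on its level in both lines and no direction. It entered no test.

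ST2A (AT5G07010), the sulfotransferase that acts on hydroxylated jasmonic acid, showed the largest mean change of the 9 tested genes in the main fit, though not after normexp background correction. At the brighter of its 2 probes the wild-type levels were -4.37, -3.43, -4.95 and -3.61, and the tt8-3 levels were -1.93, -1.15, -2.13 and -1.91. At the other probe they were -4.59, -3.65, -4.84 and -3.70 against -2.39, -2.09, -2.23 and -2.05. At both probes every tt8-3 array was above every wild-type array, and in wild type the second array of a slide was higher than the first by 0.93 to 1.34. The rise at the brighter probe was 2.32 on the log2 scale, or 4.98-fold (SE 0.23, limma adjusted p = 0.00857), and that at the other probe was 2.00 (adjusted p = 0.00363 in the fit over all probes). By order, the change was 2.64 between first arrays and 2.00 between second arrays at the brighter probe, and the call was lost (adjusted p = 0.0726). In the fit over all probes, where 13.0% of probes were called higher, the 2 probes by order had adjusted p-values of 0.0577 and 0.0585.

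**Figure D2:**
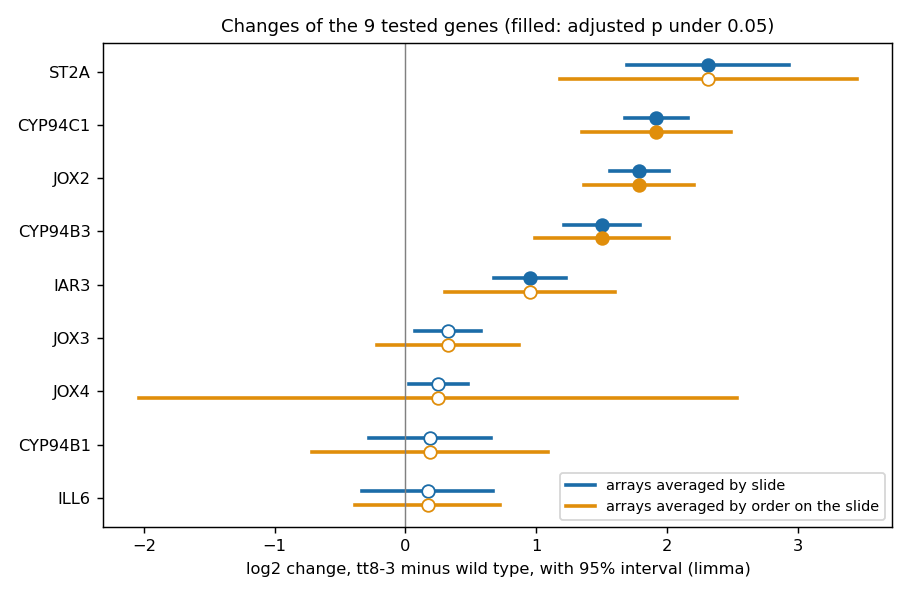
Log2 change (tt8-3 minus wild type) of the 9 tested genes with unadjusted 95% intervals from limma, with arrays averaged by slide (blue) or by order on the slide (orange); filled points passed the adjusted threshold. CYP94C1, JOX2 and CYP94B3 passed with both averagings, ST2A and IAR3 with slide averages only, and the interval of JOX4 widened from 0.029 to 0.48 by slide to -2.03 to 2.54 by order.

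In descending order the changes were those of ST2A, CYP94C1, JOX2, CYP94B3, IAR3, JOX3, JOX4, CYP94B1 and ILL6. The slide-average intervals of ST2A (1.70 to 2.93), CYP94C1 and JOX2 (1.56 to 2.02) overlapped, and that of CYP94B3 overlapped all of these and also that of IAR3. The overlap of CYP94B3 with IAR3 was narrow (lower bound 1.2156 against upper bound 1.2256). Intervals of the last 4 genes overlapped as well. Overlap does not decide whether neighbours differ, and the order of the genes was not itself tested. IAR3 (0.68 to 1.23) stood apart from ILL6 (upper bound 0.67) by a margin of about 0.01, and overlapped it when arrays were averaged by order (0.31 to 1.60 against -0.38 to 0.72). A background correction with normexp lowered the change of ST2A to 1.41, below those of CYP94C1 (1.60) and JOX2 (1.55), and ended the calls of CYP94B3 (adjusted p = 0.0827), IAR3 (0.107) and ST2A (0.0939), and it left those of CYP94C1 (0.0477) and JOX2 (0.0492) close to the threshold. Without spots of flagged background JOX2 was just past it (adjusted p = 0.0511).

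The arrays of a line on 1 slide differed in a way that recurred on the other slide. For the 9 genes the median difference between arrays of the same slide was 0.55 and 0.39 in wild type and 0.26 and 0.25 in tt8-3 (absolute log2 difference, slides 1 and 2). Between arrays of the same order on different slides it was 0.15 and 0.18 in wild type and 0.11 and 0.16 in tt8-3. IAR3, CYP94B3, CYP94C1, JOX2, JOX4 and ST2A were higher on the second wild-type array of both slides, and CYP94B1, ILL6 and JOX3 were lower there. In tt8-3, CYP94C1 was lower on the second array of both slides, by 0.44 and 0.25, the reverse of wild type, while CYP94B3 and IAR3 differed by at most 0.073. A difference past 2 between tt8-3 arrays of a slide, seen for JOX4 on both slides, was met by 0.0572% of all genes tested (a limit set after seeing JOX4).

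**Figure D3:**
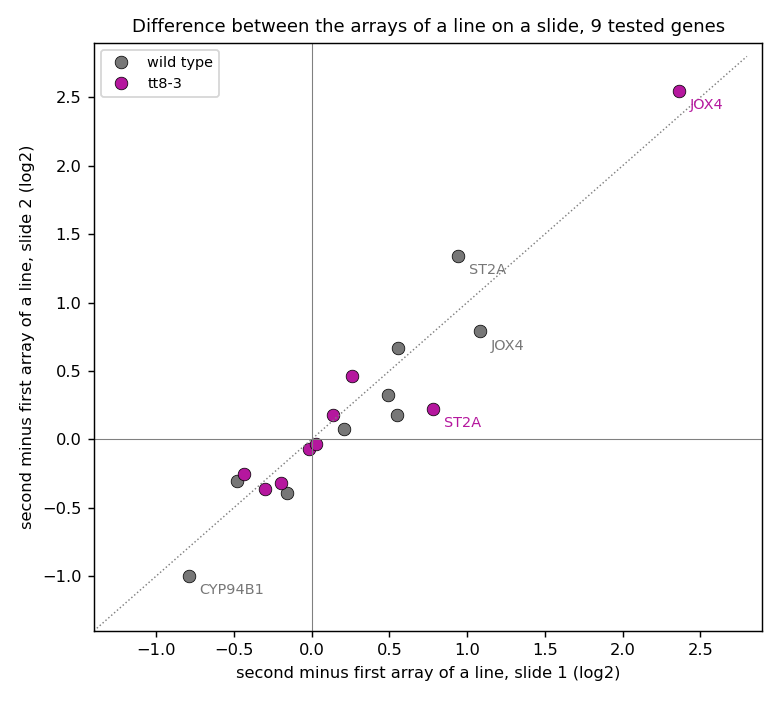
Difference between the second and the first array of a line on slide 1 (horizontal axis, log2) and on slide 2 (vertical axis, log2) for the 9 tested genes in wild type (grey) and tt8-3 (purple), with a dotted line of equality. JOX4 in tt8-3 lies at 2.36 and 2.54, and wild-type ST2A, JOX4 and CYP94B1 also lie far from 0 on both slides.

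Close relatives of these enzymes were compared to see whether the families moved as wholes. Of 9 listed relatives 7 were tested and none passed in either direction (median log2 change 0.20), and with slide as a block 4 were called higher and 1 lower, where 33.8% of all genes were called higher and 30.8% lower. The P450 genes CYP94B2 and CYP94D1 were not well above background on any array, and CYP94D2 had a change of -0.03. ILL5, an amidohydrolase gene with 1 annotated gene between it and IAR3, had levels of -1.13 to 0.01 in wild type and 0.33 to 1.45 in tt8-3. These did not overlap, but its change of 1.296 did not pass (SE 0.33, limma adjusted p = 0.0539, or 0.0894 by order). It passed without wild-type array 2 or 4, without tt8-3 array 2 or 3, or without the wild-type arrays of slide 1 or the tt8-3 arrays of slide 2 (adjusted p = 0.0106 to 0.0496). Whether the probes of IAR3 and ILL5 also bind each other's transcripts was not tested. ST2B, the sulfotransferase gene next to ST2A, had a change of 0.08 (95% interval -0.22 to 0.38, adjusted p = 0.632). That interval lies below the interval of ST2A, also by order (-0.60 to 0.76 against 1.18 to 3.45). The other amidohydrolase genes had changes of 0.28 for ILR1 (adjusted p = 0.0948), 0.30 for ILL2, 0.20 for ILL3 and -0.23 for ILL1. At the brighter of the 2 probes of ILR1 the lines did not overlap, with tt8-3 higher by 0.13 at the nearest arrays. At its other probe they overlapped (change 0.22). Over all genes tested, 19.6% stood apart with tt8-3 higher. The block on slide called ILL5, ILR1, ILL2 and ILL3 higher and ILL1 lower.

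The turnover genes sat among other jasmonate genes, many of which were higher in tt8-3. Of 21 listed synthesis and conjugation genes 19 were tested: 11 rose and 1 fell, with a median of 0.80, or 6 and 0 by order, where 15.7% of all genes rose and 11.0% fell by slide, and 2.73% and 0.38% by order. Of 21 perception and control genes 20 were tested: 11 rose and 1 fell, with a median of 0.57, or 4 and 0 by order, to be read against the same shares. Among the substrates' makers, LOX2 and LOX4, lipoxygenases, had changes of 1.35 (adjusted p = 0.00604) and 2.01 (adjusted p = 0.00647) and lost their calls by order (0.0719 and 0.0755). Of the 6 genes of this list with the smallest p, AOC1, LOX3, OPCL1 and JMT passed with both averagings (limma adjusted p by order 0.0311, 0.0173, 0.0279 and 0.00758). Outside those 6, AOC3 and OPR3 also did (0.0389 and 0.0373 by order). JMT, which methylates jasmonic acid, was not well above background on any wild-type array and was at least 3.12-fold higher in tt8-3 by the brightest of its 3 probes. The change of JMT was 1.17 on the log2 scale with the median over its probes (adjusted p = 0.038) and 1.01 after normexp (adjusted p = 0.25), both lower than that bound. JMT entered the test only through its tt8-3 arrays, so its p-values rest on wild-type levels not well above background. Among genes detected on all 8 arrays, which leaves JMT out, 10 of 18 synthesis genes rose and 1 fell. Of all 18263 genes in that fit 14.35% were called higher, and 2117 genes were called lower. JAR1, which makes the conjugate that the CYP94 enzymes and amidohydrolases consume, had a change of -0.04 (adjusted p = 0.809). The single gene of the synthesis list that passed as lower was ACX5, a peroxisomal acyl-CoA oxidase, by 0.43 (limma adjusted p = 0.0335, and 0.19 by order). PXA1 (-0.37), ACX1 (-0.33), KAT2 (-0.32), MFP2 (-0.31) and AIM1 (-0.055) also had lower means but did not pass. Of the 19 tested genes 12 had higher means. With slide as a block 5 genes of the list were called lower, where 30.8% of all genes were. JAR1 and these genes of lower mean were chosen after their values were seen.

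Among the regulators, MYC2, the factor that activates jasmonate genes, and the repressor genes JAZ10 and JAZ8 passed with both averagings, with changes of 1.37, 1.42 and 1.55 (adjusted p by order 0.0288, 0.0252 and 0.0331). JAZ1, JAZ7 and JAM1, whose products hold the response back, passed with slide averages (adjusted p = 0.00295, 0.007 and 0.0107) and not by order (0.0536, 0.0807 and 0.0535). JAZ3 was the one gene of this list that fell, by 0.45 (adjusted p = 0.0313, and 0.41 by order), and it was chosen after its values were seen, as was COI1. The receptor gene COI1 had a change of -0.12 (adjusted p = 0.64).

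**Figure D4:**
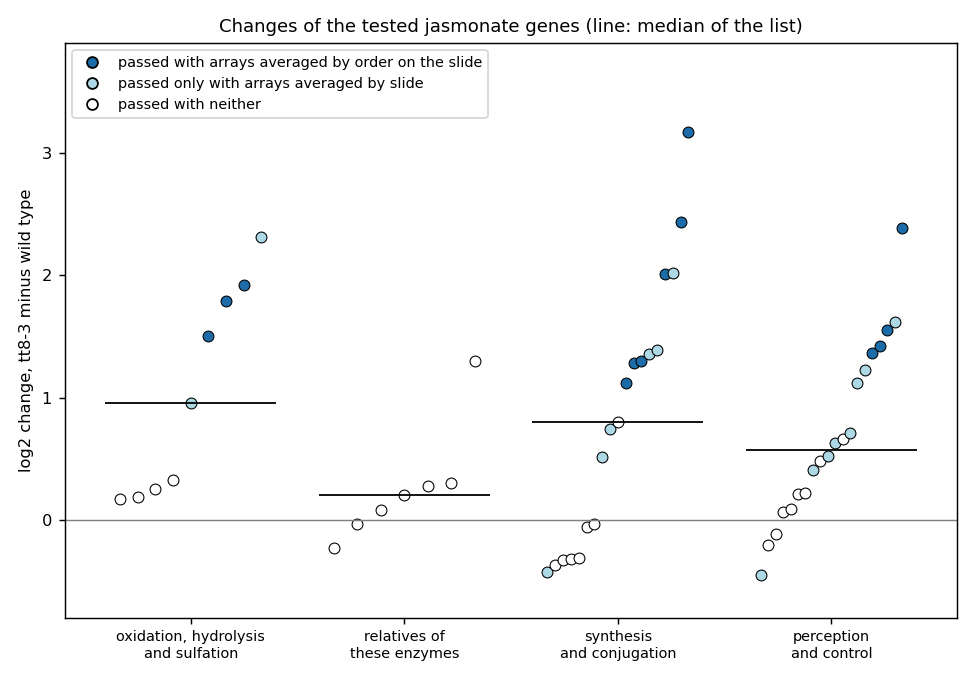
Log2 change (tt8-3 minus wild type) of every tested gene of 4 jasmonate lists, with a line at each median and fill for the averagings in which a gene passed. The turnover genes form a group of 5 between 0.95 and 2.32 and a group of 4 between 0.17 and 0.33, while the relatives lie near 0 except ILL5 at 1.296.

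Other genes followed the mean level of the 9 tested genes closely across arrays. The closest by level over the 8 arrays were AT1G11210, AT3G14870, JMJD5 (AT3G20810), AT3G56410 and RRA3 (AT1G19360), with Pearson r of 0.998, 0.996, 0.996, 0.995 and 0.994. By deviations from the line means, which leave out the difference between lines, they were AT3G02490, CCoAOMT1 (AT4G34050), AT5G01740, MSRB9 (AT4G21850) and SDG29 (AT5G53430), with r of 0.995 to 0.989. In tt8-3 the deviations of the 9-gene mean draw largely on JOX4. Its arrays of a slide differed by 2.36 and 2.54, against a median of 0.26 and 0.25 for the 9 genes. The likeness by deviations is therefore not one to a pattern shared by all 9. The points share slides and scaling, and these values describe the 8 arrays only.

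Markers of shoot and root were read beside these changes. None of 10 photosynthetic tissue markers passed (median -0.39), and 9 fell with slide as a block, where 30.8% of all genes were called lower. That median was -0.04 with quantile normalization, and it was 0.01 without the tt8-3 arrays of slide 1, -0.72 without those of slide 2, -0.63 without the wild-type arrays of slide 1 and -0.11 without those of slide 2. Their summed level was 10.701 to 11.800 on wild-type arrays and 10.573 to 11.365 on tt8-3 arrays (log2 of summed scaled signal). Of 10 root markers 9 were tested: PYK10 rose by 0.71 and NRT2.1 (-2.05) and PHT1.1 (-0.65) fell, with a median of -0.02. Over all genes 15.7% were called higher and 11.0% lower. By order NRT2.1 kept its call (limma adjusted p = 0.0274), and PYK10 (0.3) and PHT1.1 (0.205) lost theirs. The shares over all genes were then 2.73% higher and 0.38% lower. The summed level of the root markers was 4.45 to 5.30 and 5.19 to 5.49. RHD6, a root hair factor, was not tested: 3 of 4 tt8-3 arrays read it well above background and 0 of 4 in wild type did. The part of organ balance in the changes of the turnover genes was not tested.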

How the data were processed

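Processed signal intensities, background-subtracted and detrended, were made by the authors with Feature Extraction 10.7.1.1 (Agilent), per the file headers, as were the median intensities of spot and local background and the 0 or 1 flags. The deposited log2 value table matched the scaled processed signal centred per probe within each slide. Members and lists were chosen with earlier results of these data known. Spots flagged as uneven or as outliers (4 to 23 per array) were left out, repeated spots averaged, and 34340 of 43603 probes named through RefSeq accessions (TAIR10.1, whose coordinates are not given because the array design names another build). The brightest probe stood for a gene, which was tested if either line had it well above background on each of its 4 arrays. limma 3.58.1 in R 4.3.3 was fitted on slide averages, with Benjamini-Hochberg adjustment over 19214 genes, and the code was tested on simulated data. The slide number in the labels pairs the lines (r = 0.78 between their slide deviations across genes). With 2 samples per line, p-values measure the spread between these averages, which may be technical, and few arrays limit the precision. Named from other lists were all tested relatives, the 6 smallest p per list and, for likeness, the 5 highest r. Alternatives were another averaging, slide as a block, random blocks, other scaling, normexp, filters, probe choice, the deposited table and left-out arrays. The planned normexp on mean signals was run on median signals, since the files used hold no mean signal. Promoter motifs and protein sequences were not analysed here.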

Additional observations from a re-analysis of the deposited data

How the results depend on the processing

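The count of turnover genes higher in tt8-3 was 5 in each fit without 1 array or 1 biological replicate, where 7.73% to 15.43% of all genes were called higher, and none was lower in any fit. It was 3 with arrays averaged by order (2.73% of all genes higher) and 9 with slide as a replicate block on slide averages (33.78%). It was 9 with the deposited table (37.39%), already centred within slides, which removes the spread between slides. Normexp on median signals gave 2 (0.47%), or 1 when spots of flagged background were left out (0.48%). Slide as a replicate block on 8 single arrays kept it at 5 (20.27%). The random blocks by slide and by order also kept it at 5 (21.38% and 8.87%). For the other lists, counts called higher are to be read against these shares, and counts lower against the all-gene counts given below. The median change was 0.85 with median scaling, 0.88 and 0.87 with the normexp settings and 0.64 with no filter, and 0.79 to 1.12 with an array or replicate left out. Relatives higher were 4 with the slide block, 2 with the block on single arrays, 2 with biological replicate as a random block, 4 with the deposited table and 0 to 1 with an array or replicate left out; relatives lower were 1 with the slide block and 1 with the deposited table.

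Synthesis genes higher were 6 by order, 1 and 1 with normexp and 9 to 11 with an array or replicate left out. Synthesis genes lower were 0 by order, 5, 3 and 5 with the slide block, the block on single arrays and the random block by slide, 2 with median scaling, 0 and 0 with normexp, 0 with no filter, 2 with the median over probes, 5 with the deposited table and 0 to 1 with an array or replicate left out. Perception genes higher were 4 by order, 0 and 0 with normexp (limma) and 6 to 11 with an array or replicate left out; perception genes lower were 0 by order, 0 in the block on single arrays, 0 in both random blocks, 0 and 0 with normexp, 0 with no filter, 2 with the deposited table and 0 to 1 with an array or replicate left out.

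CYP94B1 changed by -0.061 to 0.44, ILL6 by 0.0002 to 0.34 and JOX4 by -0.38 to 0.89 with an array or replicate left out. ST2B was at -0.021 with median scaling and -0.043 with quantile normalization, and at -0.092 to 0.25 with an array or replicate left out, and CYP94D2 at -0.21 to 0.14. Over all genes, 3022 were higher and 2112 lower, against 524 and 73 by order and 6491 and 5915 with the slide block. The block on single arrays gave 3895 and 2702, the random block by slide 4108 and 2937 and that by order 1704 and 766. Median scaling gave 2152 and 2597, and normexp 91 and 14, or 92 and 13 without spots of flagged background. These were 1572 and 825 with no filter, 3060 and 2458 with the median over probes and 7184 and 6699 with the deposited table. Normexp moved the median of all genes from 0.01 to 0.12, so changes under it stand relative to 0.12. The causes were not tested. JOX1 in both lines and JMT in wild type were not well above background, and ST2A had wild-type signals of 25.5 to 80.6.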

Other observations

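Besides JOX4, 10 genes differed by more than 2 on the log2 scale between the arrays of tt8-3 on both slides, a limit chosen after the values of JOX4 were seen. Higher on the second array, as JOX4 was, were TAT3 (2.75 and 2.78 on slides 1 and 2), a tyrosine aminotransferase, NATA1 (2.19 and 2.32), an acetyltransferase, CYP82G1 (2.45 and 2.97), a cytochrome P450 of volatile terpene synthesis, JAL23 (3.13 and 3.70), ATSDI1 (3.20 and 3.63) and AT1G54020 (2.07 and 2.12). In wild type the same difference was 3.05 and 3.26 for TAT3, 1.06 and 1.41 for CYP82G1, 0.36 and 0.46 for NATA1, 0.070 and -0.32 for JAL23, 0.18 and -0.48 for AT1G54020 and, in the reverse direction, -1.56 and -1.85 for ATSDI1. Lower on the second tt8-3 array were the seed genes OLEO2 (-2.21 and -2.28), an oleosin, CRA1 (-2.35 and -2.13), a storage protein, and GEA6 (-2.35 and -2.31), together with AT2G25890 (-2.20 and -2.34). In wild type these were at 1.097 and -0.65 for OLEO2, -1.27 and -0.15 for CRA1, -0.76 and -0.64 for GEA6 and 1.97 and 0.097 for AT2G25890. No other turnover gene was among them. These are values of single arrays, and no cause of the split was tested.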
